A study of Homo sapiens with 6 samples.

Results

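The 10 genes described here encode the DNA glycosylases UNG, SMUG1, TDG, MBD4, OGG1, MUTYH, NTHL1, NEIL1 and NEIL2 and the endonuclease APEX1, which acts after them in base excision repair. They were taken by symbol from a table of 25702 genes, and all 10 were present and above the low-value filter that left 15622 genes for testing. UNG was chosen by its low value in the siGLI1 libraries of this same comparison, so its change is given as a description with no test. The other 9 were listed by enzyme family, and the question was whether any of them moved with UNG or against it. This list was made with earlier results of these data known, so the p-values of the 9 are to be read as descriptions. The cells were RMS13, an established human cell line from rhabdomyosarcoma, a soft tissue cancer that expresses skeletal muscle genes, and their RNA was sequenced. Cells carried either a small interfering RNA (siRNA) against GLI1, the transcription factor at the end of the Hedgehog pathway, or a non-targeting siRNA called siNT2, and both groups were collected at 72 h. Each group had 3 libraries of this 1 line, with no untransfected cells among them, and a single siRNA label stands for each group.

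Base excision repair removes single damaged or misplaced bases from DNA. A glycosylase recognises the base and cuts it from its sugar, APEX1 nicks the backbone at the empty (abasic, AP) site, and a polymerase and a ligase refill and close the gap. Glycosylases differ in what they recognise. UNG, SMUG1, TDG and MBD4 act on uracil or on the thymine left by deamination of methylated cytosine, OGG1 and MUTYH guard against oxidised guanine, and NTHL1, NEIL1 and NEIL2 act on oxidised bases of several kinds. UNG is the main enzyme for uracil in DNA, whether it enters during replication through dUTP or arises from deaminated cytosine.

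The libraries held 13673977 to 18947614 reads, and the lowest count for any of the 10 genes in any library was 157 reads. GLI1 itself stood at 11960, 17840 and 12770 normalised reads in siNT2 and at 579.9, 905.8 and 1274 in siGLI1, so the labels and the targeted transcript go together. Of 10 myogenic and rhabdomyosarcoma markers 9 had a mean of 10 or more, and their summed level was 47900 to 63240 in siNT2 and 52780 to 74230 in siGLI1. Among 3 endothelial markers only PECAM1 reached a mean of 10. Their sum was 13.56 to 26.37 in siNT2 and 94.05 to 102.7 in siGLI1. Epithelial, blood and neural markers each had 1 gene at a mean of 10 or more, with sums that did not separate the groups for blood and neural genes and were 50.71 to 59.81 against 28.64 to 38.85 for the epithelial ones. Whether these marker levels bear on the repair genes was not tested. Libraries also differed within groups along GC content: siNT2 replicate 2 and siGLI1 replicate 3 had high values for GC-rich genes (rank correlations across genes of 0.682 and 0.726 between GC content and deviation from the group), and the other 4 libraries had correlations from -0.675 to -0.302. For the 10 repair genes, calls that change without this trend or without these 2 libraries are given both ways.

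Sequences are shown for the genes whose values carry the comparison. UNG has a pair of RefSeq start sites, which are known to give the mitochondrial and the nuclear form of the enzyme, and the deposited table gives 1 value for the gene. The first window below lies upstream of the second, each runs 5′ to 3′ from 250 bases before a start to 50 after it, and both are on the plus strand of chromosome 12 in GRCh38.p14. The capitals in the second window mark an E2F-type word, and the first window has no capitals because it held none of the GLI or E2F words searched. For APEX1, on the plus strand of chromosome 14, the capitals mark the 87 bases that its window shares with that of the neighbouring gene OSGEP, which is read the other way.
UNG start 1, chr12:109097347-109097646: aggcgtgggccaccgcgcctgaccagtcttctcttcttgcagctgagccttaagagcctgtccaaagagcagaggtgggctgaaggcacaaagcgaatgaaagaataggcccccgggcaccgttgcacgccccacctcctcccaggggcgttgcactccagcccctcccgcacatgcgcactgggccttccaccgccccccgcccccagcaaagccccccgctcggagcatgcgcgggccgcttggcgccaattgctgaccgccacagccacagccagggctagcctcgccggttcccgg
UNG start 2, chr12:109097922-109098221: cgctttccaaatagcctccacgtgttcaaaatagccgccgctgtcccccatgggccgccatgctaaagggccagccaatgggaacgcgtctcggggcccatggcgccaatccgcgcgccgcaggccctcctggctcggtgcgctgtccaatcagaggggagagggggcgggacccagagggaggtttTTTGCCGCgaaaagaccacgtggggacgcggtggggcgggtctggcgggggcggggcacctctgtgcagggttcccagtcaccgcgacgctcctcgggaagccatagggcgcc
APEX1 start, chr14:20454976-20455275: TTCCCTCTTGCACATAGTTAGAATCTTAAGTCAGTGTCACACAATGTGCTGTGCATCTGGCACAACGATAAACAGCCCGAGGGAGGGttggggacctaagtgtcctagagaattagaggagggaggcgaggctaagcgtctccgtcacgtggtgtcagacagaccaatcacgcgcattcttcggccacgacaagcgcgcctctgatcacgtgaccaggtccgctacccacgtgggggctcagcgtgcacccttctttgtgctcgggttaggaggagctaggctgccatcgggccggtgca

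RefSeq start windows were used for 8 of the 10 genes, and those of SMUG1 and NEIL2 were not searched. The GLI word searched was GACCACCCA, on both strands, which 0.236% of 35116 promoters of the same length hold. No window of the 8 genes held it. The E2F words searched were TTTCCCGC, TTTGGCGC, TTTCGCGC and TTTGCCGC, on both strands, which 3.31% of the promoters hold, and among the 8 genes only the second UNG window held one. A match is a description of letters in the window, and a missing match says only that these letters are not there.

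The uracil and thymine glycosylases came apart in the siGLI1 libraries. UNG (Entrez gene 7374) had 1642, 1423 and 1850 normalised reads in siNT2 replicates 1, 2 and 3 and 259.2, 280.1 and 298.3 in siGLI1. Every siGLI1 library lay far below every siNT2 library, and the siGLI1 values were close to each other. The mean went from 1638 ± 214 to 279.2 ± 19.6 (SD, n = 3 per group), which is 17.0% of the siNT2 mean. This is a log2 fold change (siGLI1 minus siNT2) of -2.54, with a standard error of 0.15, the 61st lowest of the 15622 genes tested. With the GC trend removed it was -2.55, and it ranged from -2.64 to -2.45 when each library was left out in turn. In bulk RNA, fewer cells that express a gene and less of its RNA per cell cannot be told apart.

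SMUG1 (Entrez gene 23583), a nuclear glycosylase that also removes uracil and oxidised pyrimidines, stood at 339.3, 417.9 and 347.7 normalised reads in siNT2 and 212.7, 218.8 and 291.4 in siGLI1. The groups did not overlap, and siGLI1 replicate 3 was the siGLI1 library nearest to siNT2. The means were 368.3 ± 43.1 and 241.0 ± 43.7 (SD, n = 3), a log2 fold change of -0.62 (95% interval -1.03 to -0.20) that missed the threshold (limma adjusted p = 0.0569). It passed with the GC trend removed (-0.53, adjusted p = 0.0102), without siGLI1 replicate 3 (-0.76, adjusted p = 0.0208), without both GC-rich libraries (-0.67, adjusted p = 0.00879) and with DESeq2 (adjusted p = 0.0264), and not with edgeR (adjusted p = 0.0642), with a replicate block (0.144) or in the other 5 omissions of a library (0.107 to 0.216).

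TDG (Entrez gene 6996) removes thymine and uracil mispaired with guanine and the oxidised forms of methylated cytosine. Its values were 732.4, 705.9 and 819.0 in siNT2 and 945.0, 899.6 and 615.3 in siGLI1. The siGLI1 libraries lay on both sides of siNT2, with replicate 3 the lowest of all 6. The log2 fold change was 0.10 (95% interval -0.34 to 0.54, limma adjusted p = 0.749), and it was -0.03 with the GC trend removed. With libraries weighted by their agreement it was 0.26 and passed (limma adjusted p = 0.0403). That weighted fit called 4059 of the 15622 genes higher. Its weights were 4.05 for siNT2 replicate 1, 6.14 for siGLI1 replicate 2 and 0.29 to 0.82 for the others, with siGLI1 replicate 3 at 0.29. The interval without weights allows neither a rise nor a fall as large as the UNG difference.

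MBD4 (Entrez gene 8930), which binds methylated DNA and removes mispaired thymine, had 591.9, 503.0 and 626.0 normalised reads in siNT2 and 535.7, 538.8 and 422.7 in siGLI1. The groups overlapped, because siNT2 replicate 2 was lower than 2 of the siGLI1 libraries. The log2 fold change was -0.20 (95% interval -0.58 to 0.17, limma adjusted p = 0.43). With the GC trend removed the groups no longer overlapped, and the change was -0.36 and passed (adjusted p = 0.024), while without the 2 GC-rich libraries it did not (-0.18, adjusted p = 0.352). MBD4 has the lowest transcript GC content of the 10 genes, 42.9%, and TDG the next lowest, 44.4%.

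**Figure D1:**
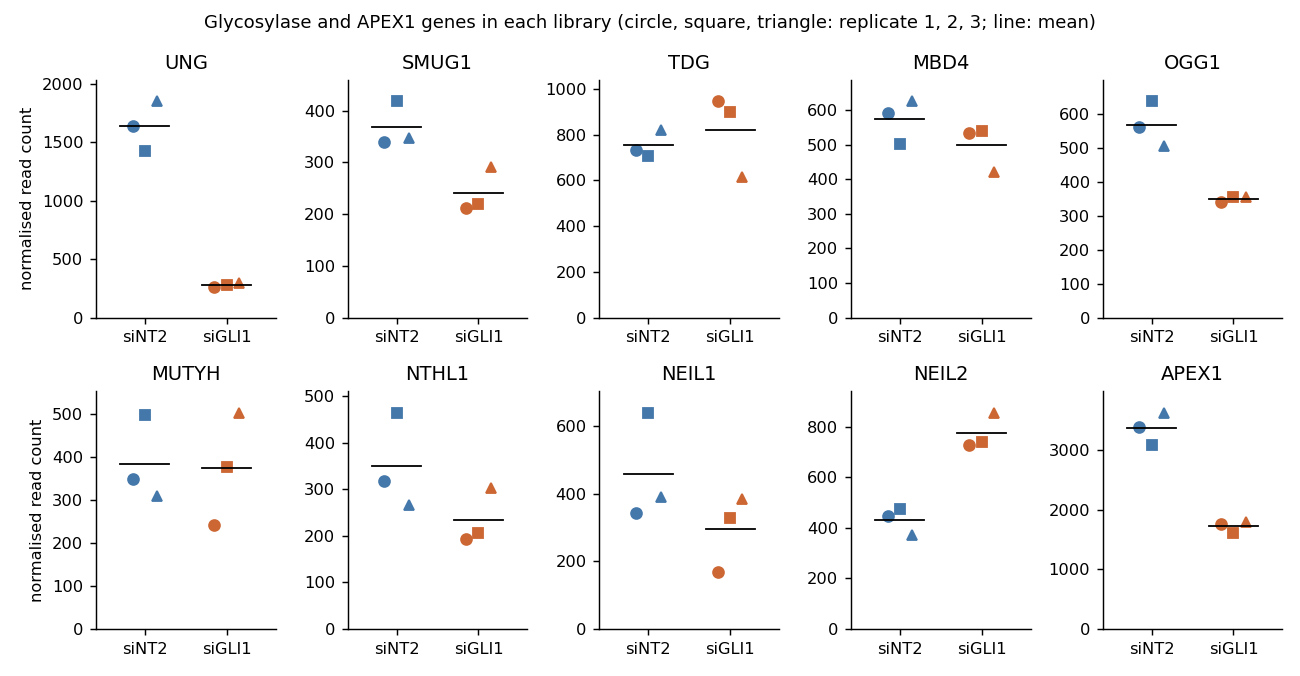
Normalised read counts (y axis, from 0) of the 10 genes in the siNT2 and siGLI1 libraries (x axis), with replicates 1, 2 and 3 as circle, square and triangle and the group mean as a line. UNG drops from 1638 to 279.2 and APEX1 from 3364 to 1718, NEIL2 is higher in all siGLI1 libraries, and MUTYH and TDG overlap between groups.

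Among enzymes for oxidised guanine, OGG1 fell and MUTYH gave no call. OGG1 (Entrez gene 4968) removes oxidised guanine paired with cytosine. It had 561.1, 635.9 and 504.8 normalised reads in siNT2 and 339.1, 353.7 and 355.6 in siGLI1, and the siGLI1 libraries agreed closely and lay below all siNT2 libraries. The mean went from 567.3 ± 65.8 to 349.5 ± 9.02 (SD, n = 3), or 61.6% of siNT2. OGG1 fell by 0.69 (log2, with a standard error of 0.14 and a 95% interval of -1.02 to -0.36; limma adjusted p = 0.0184, edgeR adjusted p = 0.02). With the GC trend removed the change was -0.57 (adjusted p = 0.00657). The call was lost without siNT2 replicate 1 (adjusted p = 0.0862), siNT2 replicate 2 (0.0524), siGLI1 replicate 1 (0.0541) or siGLI1 replicate 2 (0.094), with fold changes from -0.77 to -0.61 over all 6 omissions. It was also lost with the replicate number as a block (adjusted p = 0.0859).

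MUTYH (Entrez gene 4595) removes adenine placed opposite oxidised guanine. Its values were 348.1, 499.0 and 308.6 in siNT2 and 241.9, 378.3 and 503.7 in siGLI1. The spread within each group was larger than the difference between them, and the highest library of each group was the GC-rich one. The log2 fold change was -0.07 (95% interval -0.76 to 0.61, limma adjusted p = 0.89), and it turned to 0.11 with the GC trend removed. The interval allows a change of 1.5 times in either direction.

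The enzymes for other oxidised bases pointed in different directions. NEIL2 (Entrez gene 252969), which prefers lesions in single-stranded or bubble DNA and is known for repair in transcribed genes, was the only 1 of the 9 called higher. It had 448.0, 473.6 and 372.4 normalised reads in siNT2 and 729.0, 739.1 and 856.3 in siGLI1, so each siGLI1 library was above each siNT2 library. The mean went from 431.4 ± 52.6 to 774.8 ± 70.8 (SD, n = 3), or 180% of siNT2. NEIL2 rose by 0.85 (log2, with a standard error of 0.15 and a 95% interval of 0.49 to 1.20; limma adjusted p = 0.0112, edgeR adjusted p = 0.0114). The change was 0.90 with the GC trend removed (adjusted p = 0.000521) and 0.84 without the 2 GC-rich libraries (adjusted p = 0.00177). The call was lost without siNT2 replicate 1 (0.88, adjusted p = 0.0535) or siGLI1 replicate 2 (0.88, adjusted p = 0.0618), and with the replicate number as a block (adjusted p = 0.0646).

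NTHL1 (Entrez gene 4913) removes oxidised pyrimidines such as thymine glycol. It had 317.3, 464.5 and 266.3 normalised reads in siNT2 and 192.2, 206.5 and 302.2 in siGLI1, and the groups overlapped through siGLI1 replicate 3. The log2 fold change was -0.57 (95% interval -1.17 to 0.03, limma adjusted p = 0.179). It was -0.33 with the GC trend removed, where the groups did not overlap but the test was not passed (adjusted p = 0.0748), and -0.54 without the 2 GC-rich libraries, where it was (adjusted p = 0.0337).

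NEIL1 (Entrez gene 79661), which acts on oxidised pyrimidines and on opened purine rings, had 342.6, 639.0 and 389.9 normalised reads in siNT2 and 169.6, 329.2 and 385.2 in siGLI1. It was the most variable of the 10 genes within groups and has the highest transcript GC content, 64.8%. The log2 fold change was -0.66 (95% interval -1.47 to 0.15, limma adjusted p = 0.24), and -0.39 with the GC trend removed (adjusted p = 0.127). The estimate is close to that of OGG1 in size, but the error around it is far wider.

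APEX1 (Entrez gene 328), the main AP endonuclease and also a redox factor for transcription factors, fell. It had 3380, 3086 and 3627 normalised reads in siNT2 and 1756, 1601 and 1799 in siGLI1. The groups lay far apart for their spread, and the mean went from 3364 ± 271 to 1718 ± 104 (SD, n = 3), or 51.1% of siNT2. APEX1 fell by 0.97 (log2, with a standard error of 0.12 and a 95% interval of -1.26 to -0.68; limma adjusted p = 0.00337, edgeR adjusted p = 0.00352). It was called in all 6 omissions of a library, with fold changes from -1.03 to -0.91, and with the GC trend removed (-0.92, adjusted p = 0.000473). It ranked 811 from the lowest of 15622 genes.

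Of the 9 genes other than UNG, 2 were called lower (APEX1 and OGG1) and 1 higher (NEIL2). Over all genes tested, limma called 8.0% lower and 7.21% higher. The groups did not overlap in 4 of the 9 (APEX1, OGG1, SMUG1 and NEIL2), against 36.2% of all genes tested. Their median log2 fold change was -0.57, in a range of -0.97 to 0.85, beside a median of -0.01 over all genes. With the GC trend removed 4 were lower (APEX1, OGG1, SMUG1 and MBD4) and 1 higher, where 15.9% of all genes were called lower and 14.7% higher, and the median of the 9 was -0.36. No count here is a test of the set, since the genes were chosen with these results known. None of the 9 had a fold change as low as that of UNG, and no glycosylase for uracil or thymine was called higher in this fit. TDG was called higher when libraries were weighted (0.26, limma adjusted p = 0.0403), in a fit that called 4059 of the 15622 genes higher.

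**Figure D2:**
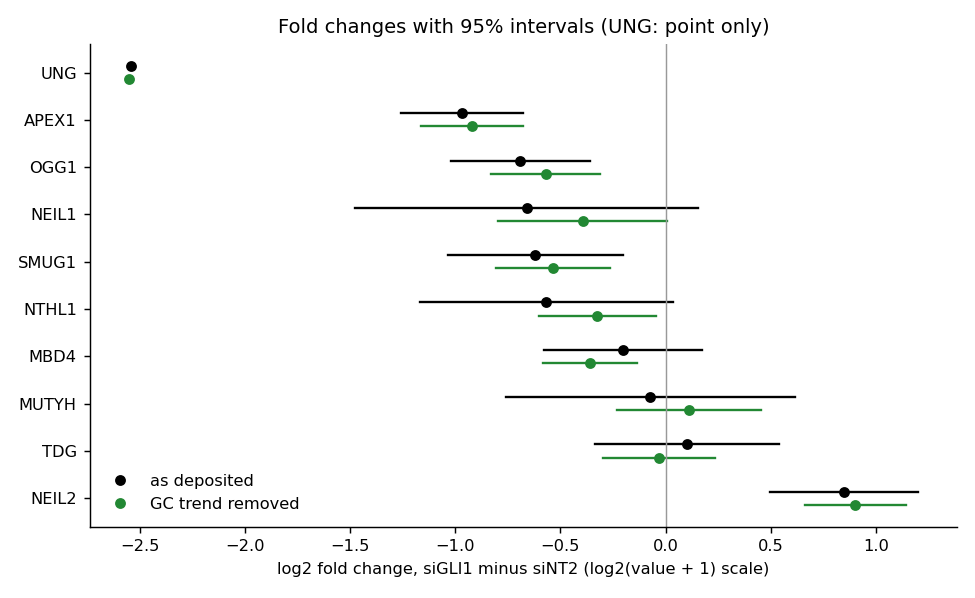
Log2 fold change (x axis, siGLI1 minus siNT2) of each gene (y axis), as deposited in black and with the GC trend removed in green; lines are 95% intervals, and UNG has a point only. UNG lies at -2.54, APEX1 and OGG1 to the left of 0, NEIL2 to the right at 0.85, and the intervals of NEIL1, NTHL1, MBD4, MUTYH and TDG as deposited include 0.

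The GC content of the transcripts went with how the most and the least GC-rich of the genes varied inside each group. In siNT2 replicate 2 and siGLI1 replicate 3, MUTYH deviated from its group mean by 0.40 and 0.49 on the log2 scale, NTHL1 by 0.45 and 0.40, and NEIL1 by 0.54 and 0.47. These 3 genes have transcript GC contents of 60.5%, 63.5% and 64.8%, the highest of the 10. TDG deviated the other way in the same libraries, by -0.09 and -0.39, and so did MBD4, by -0.18 and -0.23. UNG (50.9% GC) deviated by -0.20 and 0.10, and APEX1 (53.5%) by -0.12 and 0.07. For NEIL2 (54.0%) the deviations were 0.14 and 0.15, for SMUG1 (55.4%) 0.19 and 0.29, and for OGG1 (57.4%) only 0.17 and 0.025. The calls of APEX1, OGG1 and NEIL2 were also made without these 2 libraries.

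**Figure D3:**
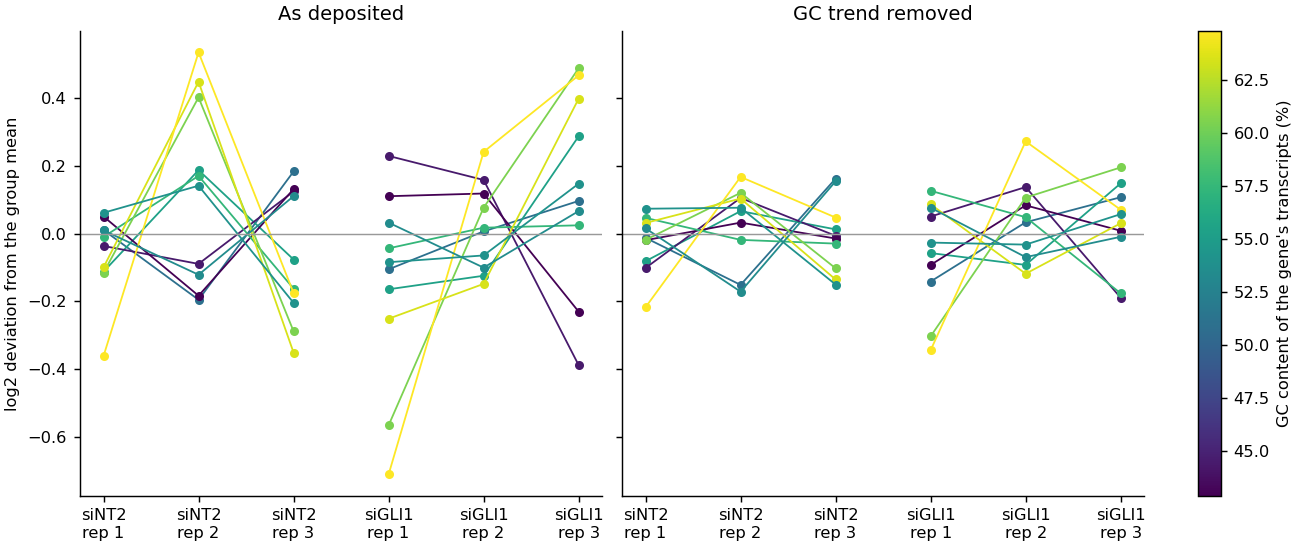
Deviation of each gene from its group mean on the log2 scale (y axis) in each library (x axis), as deposited on the left and with the GC trend removed on the right; 1 line per gene and group, coloured by transcript GC content. The lines of MUTYH, NTHL1 and NEIL1 (light) peak in siNT2 replicate 2 and siGLI1 replicate 3, where NEIL1 reaches 0.54 and 0.47. These lines draw together after removal. Those of OGG1 in siGLI1 (then 0.127, 0.049 and -0.176), UNG in siGLI1 and APEX1 in siNT2 spread further.

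Levels can be set side by side between genes only per length, and here they are normalised reads per kilobase of the longest protein-coding transcript in GENCODE. In siNT2, APEX1 was first with 2267 ± 183 (SD, n = 3) and UNG second with 769.2 ± 100. The lowest UNG library, at 668.1, was above the highest of any gene below it. There followed NTHL1 (327.4 ± 96.5), OGG1 (255.5 ± 29.6), MBD4 (231.5 ± 25.6), TDG (231.4 ± 18.2), MUTYH (199.7 ± 52.1), NEIL2 (161.5 ± 19.7), SMUG1 (141.3 ± 16.6) and NEIL1 (121.6 ± 42.4). From NTHL1 down, each gene overlapped the next in its range over the siNT2 libraries, so the order of neighbours there is not resolved. In siGLI1, APEX1 was still first with 1158 ± 70.2, NEIL2 had moved from place 8 to place 2 with 290.1 ± 26.5, and TDG followed with 252.2 ± 55.0, which does not differ from NEIL2 beyond their spread. Next came NTHL1 (219.0 ± 56.1), MBD4 (201.4 ± 26.7), MUTYH (194.2 ± 67.9) and OGG1 (157.4 ± 4.07), each overlapping the one before it. UNG had moved from place 2 to place 8, with 121.7 to 140.0 (mean 131.1 ± 9.19), below every OGG1 value and above every SMUG1 value (92.43 ± 16.8), and NEIL1 was last (78.39 ± 29.8). With the median transcript length in place of the longest, UNG went from place 2 to place 10 and NEIL2 from place 10 to place 4. On that scale UNG (780.0 ± 102) was not set apart in siNT2 from NEIL1 (778.8 ± 271, libraries from 583.6 to 1089), which was in place 3. The places below APEX1 thus depend on which transcripts the cells use.

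The 4 enzymes that act on uracil or thymine can be summed on that same scale of reads per kilobase of the longest transcript. UNG made up 56.5%, 53.5% and 57.7% of the sum in siNT2 and 17.1%, 18.5% and 22.9% of it in siGLI1. The sum itself went from 1373 ± 129 to 677.1 ± 56.7 (SD, n = 3). SMUG1, TDG and MBD4 together stood at 594.3, 580.4 and 637.9 in siNT2 and 588.4, 578.1 and 471.6 in siGLI1, so the groups overlapped on this scale and their sum did not make up the difference. With median transcript lengths the UNG share went from 37.3 ± 2.82% to 10.4 ± 1.47%, and the sum of the other 3 from 1307 ± 44.7 to 1148 ± 98.9, where every siGLI1 library (1035 to 1216) was below every siNT2 library (1262 to 1351). These shares use the UNG value by which it was chosen, so they are descriptions with no test.

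Several of the genes have a start window that overlaps the window of a neighbour read in the other direction, which gives a comparison inside each library. APEX1 and OSGEP, a gene for a tRNA-modifying enzyme, have start windows that overlap by 87 bases, the stretch in capitals above. OSGEP had 474.4, 558.8 and 484.0 normalised reads in siNT2 and 439.5, 527.5 and 538.3 in siGLI1, a log2 fold change of -0.01 that is 0.06 with the GC trend removed. The log2 ratio of APEX1 to OSGEP was 2.83, 2.46 and 2.90 in siNT2 and 2.00, 1.6 and 1.74 in siGLI1. The siGLI1 ratios all lay below the siNT2 ratios, by 0.95 on average, with an exact two-sided permutation p of 0.1, the smallest that 3 against 3 libraries can give (0.4 adjusted over the 4 pairs compared).

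MBD4 and IFT122, a gene for a ciliary transport protein, have start windows that overlap by 225 bases. IFT122 fell by 0.86 (limma adjusted p = 0.0198), a call that was lost without any 1 of the 3 siNT2 libraries (adjusted p = 0.0664, 0.0529 and 0.0523) or without siGLI1 replicate 2 (0.0933). The log2 ratio of MBD4 to IFT122 was higher in siGLI1 by 0.65, but the groups overlapped (exact permutation p = 0.3, 0.6 adjusted). MUTYH and TOE1, whose windows share 299 bases, differed in their changes by 0.12 (exact permutation p = 0.9, 0.9 adjusted). NTHL1 and TSC2, whose windows share 250 bases, differed by -0.17 (exact permutation p = 0.5, 0.667 adjusted). Next to UNG lie ALKBH2, a gene for a DNA demethylase, with a log2 fold change of -0.22 (limma adjusted p = 0.533), and ACACB with -0.18 (adjusted p = 0.613). Beside OGG1, the overlapping gene CAMK1 stood at -0.21 (limma adjusted p = 0.429). PIP4P1, which overlaps APEX1, stood at -0.23 (adjusted p = 0.285). Whether the reads were counted by strand is not given in the sources used here, so reads in these overlaps, and in that of MUTYH with TOE1, cannot be assigned with certainty.

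**Figure D4:**
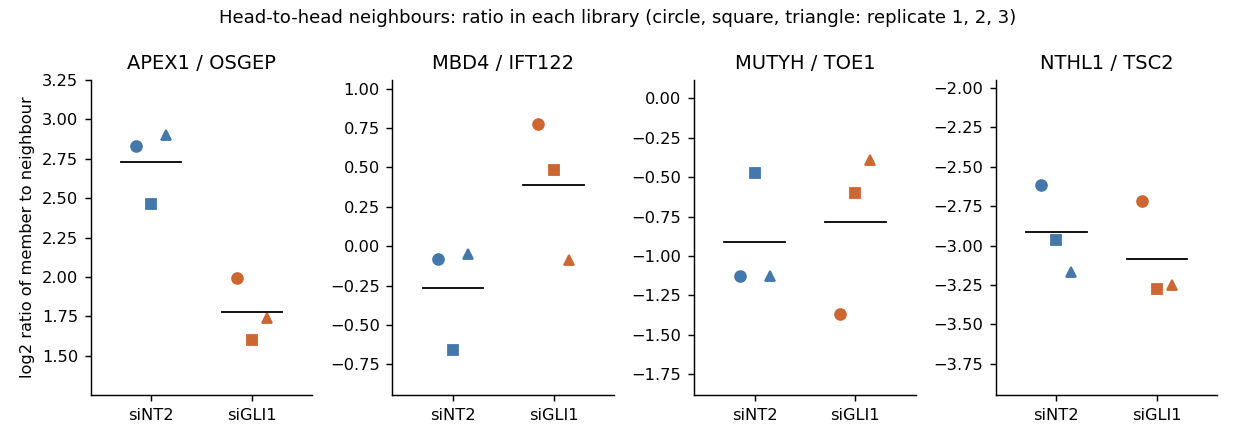
Log2 ratio of a repair gene to its head-to-head neighbour (y axis, each panel spanning the same range) in the siNT2 and siGLI1 libraries (x axis), with replicates 1, 2 and 3 as circle, square and triangle and lines for group means. The APEX1 to OSGEP ratio is lower in all 3 siGLI1 libraries, and the other 3 ratios overlap between groups.

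Beyond the 10 genes, 10 lists of the surrounding pathway held 82 genes, of which 80 were in the table and 73 were tested. Over these 73 genes 10 were called lower and 4 higher, with a median log2 fold change of -0.11, beside 8.0% lower and 7.21% higher over all genes tested. After removal of the GC trend the counts were 21 and 8, beside 15.9% and 14.7% over all genes. The counts for each list below are to be read against the same shares. The remaining glycosylases gave no call: MPG, which removes alkylated purines, had -0.19 (limma adjusted p = 0.596), and NEIL3, a relative of NEIL1 and NEIL2, had -0.14 (adjusted p = 0.727). Among 5 genes for AP sites and strand ends (median log2 fold change -0.29) 1 was lower, APEX2, the second AP endonuclease. It had 653.4, 763.7 and 592.5 normalised reads in siNT2 and 365.0, 400.8 and 480.0 in siGLI1, and fell by 0.69 (limma adjusted p = 0.0314), a call kept only in the omission of siGLI1 replicate 3 and lost in the other 5 (adjusted p up to 0.139, without siGLI1 replicate 2).

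Of the 8 genes for short-patch gap filling and ligation (median log2 fold change -0.24), 1 was called lower and none higher. PARP1, which senses strand breaks, had 8889, 8133 and 7828 normalised reads in siNT2 and 4818, 4746 and 4224 in siGLI1. It fell by 0.85 (limma adjusted p = 0.00463) and was called in all 6 omissions. POLB, the gap-filling polymerase (log2 fold change -0.03), XRCC1, the scaffold (-0.48), and LIG3, its ligase partner (-0.43), had no call (limma adjusted p = 0.943, 0.204 and 0.0724). LIG3 was called lower with the GC trend removed (-0.41, adjusted p = 0.0188) and without the 2 GC-rich libraries (-0.47, adjusted p = 0.0284), and XRCC1 was called lower without them (-0.53, adjusted p = 0.0178). Of the 19 long-patch and replication fork genes (median -0.16) 4 were lower and none higher, and with the GC trend removed 6 were lower and 1 higher (POLD4). PCNA, the sliding clamp to which UNG binds, had 2162, 2014 and 2009 normalised reads in siNT2 and 1260, 1298 and 1285 in siGLI1, and fell by 0.69 (limma adjusted p = 0.00879). Its call was lost without siNT2 replicate 1 (adjusted p = 0.0634) or siGLI1 replicate 2 (0.0608). The polymerase subunits POLD3 and POLE2 fell by 0.64 and 0.60 and the clamp loader RFC2 by 0.61 (limma adjusted p = 0.0301, 0.0423 and 0.0421). These 3 calls are near the threshold: POLD3 kept its call in 2 of 6 omissions, RFC2 in 1 and POLE2 in 0, with adjusted p up to 0.137 without siNT2 replicate 1 for POLD3, 0.175 without siGLI1 replicate 2 for RFC2 and 0.152 without siNT2 replicate 1 for POLE2.

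Of 11 genes that set the nucleotide pool, from which uracil enters DNA, 3 were lower and none higher, with a median log2 fold change of -0.20. Removing the GC trend gave 5 lower and 2 higher (DCTD and NUDT1). SHMT1, which feeds one-carbon units to thymidylate synthesis, had 1458, 1518 and 1507 normalised reads in siNT2 and 649.0, 659.4 and 691.4 in siGLI1, and fell by 1.16 (limma adjusted p = 0.00138). RRM2, a subunit of ribonucleotide reductase, fell by 0.77 (adjusted p = 0.00633), and DCTPP1, which hydrolyses dCTP and its modified forms, by 0.74 (adjusted p = 0.0141). SHMT1 and RRM2 were called in all 6 omissions, and DCTPP1 lost its call without siNT2 replicate 1 (adjusted p = 0.0788) or siGLI1 replicate 2 (0.0878). DUT, which removes dUTP, was 784.0, 650.1 and 777.5 in siNT2 and 825.1, 861.8 and 858.3 in siGLI1, without overlap but with no call (0.21, limma adjusted p = 0.33). DUT was named after its values were seen.

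Some members of the cytidine deaminase family turn cytosine into uracil in DNA or RNA, and only 4 of the 11 listed were tested. A place in this list does not show that a gene's product has that activity, which was not measured. APOBEC2, a muscle-enriched member of the family, rose from 74.67, 61.87 and 90.11 normalised reads to 412.5, 386.4 and 491.8, by 2.50 on the log2 scale (limma adjusted p = 0.000514). APOBEC3C fell by 0.98 (adjusted p = 0.0218), from 45.80 ± 6.04 to 22.62 ± 1.66 (SD, n = 3), and its call was kept without siNT2 replicate 2 or siGLI1 replicate 3 and lost in the other 4 omissions (adjusted p up to 0.103, without siNT2 replicate 1). Of the 6 genes of methylcytosine oxidation and its partners, 3 rose and none fell, and the median log2 fold change was 0.64. These were the stress-response genes GADD45B (by 2.21, limma adjusted p = 0.00154), GADD45A (by 1.0, adjusted p = 0.00373) and GADD45G (by 1.06, adjusted p = 0.0358). They are known for growth arrest as well as for demethylation. The oxidases TET1, TET2 and TET3, which hand substrates to TDG, had no call. GADD45G lost its call without siNT2 replicate 1 (adjusted p = 0.12), siNT2 replicate 3 (0.0996) or siGLI1 replicate 2 (0.107).

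The 8 mismatch repair genes, the 8 tested turnover factors of UNG and POLB and the 2 tested direct-reversal genes gave no call (median log2 fold changes -0.16, 0.17 and -0.17). With the GC trend removed 4 of the mismatch repair genes were lower. The gene of highest read count in that list, without regard to length, was MSH6, with 4934, 3543 and 5135 normalised reads in siNT2 and 3570, 3141 and 2658 in siGLI1 (log2 fold change -0.53, limma adjusted p = 0.0945). MSH6 was called lower with the GC trend removed (-0.64, adjusted p = 0.00196) and without the 2 GC-rich libraries (-0.59, adjusted p = 0.00587). Of the turnover factors HUWE1, a ubiquitin ligase, had the highest read count, without regard to length, and a log2 fold change of -0.21 (limma adjusted p = 0.356). FAM72A, whose product is known to bind UNG and promote its loss, had 0.19 (adjusted p = 0.494). It has near-identical copies, among which reads may have been split, and FAM72B and FAM72D stood at 0.19 and 0.11. A single turnover factor passed as higher after GC correction, STUB1, another ubiquitin ligase (0.44, adjusted p = 0.0103).

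**Figure D5:**
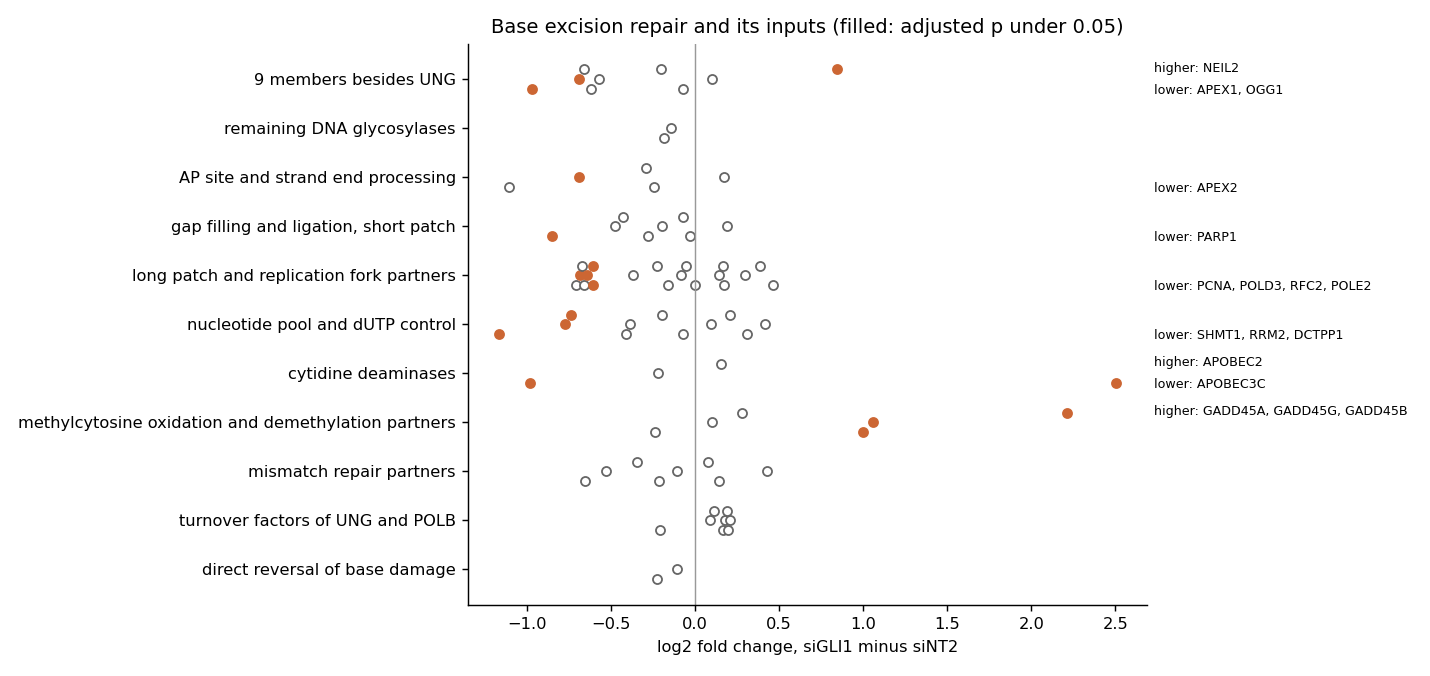
Log2 fold change (x axis, siGLI1 minus siNT2) of the tested genes in each list (y axis, spread vertically to separate points); filled points passed the limma test and are named at the right. Among the 9 genes besides UNG, APEX1, OGG1 and NEIL2 are filled, the repair synthesis and nucleotide lists have filled points only on the left, and GADD45A, GADD45G and GADD45B lie on the right.

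The pattern of UNG over the 6 libraries was compared with 12291 genes of mean 50 or more by Pearson's r of the log2 values. As points of 2 well-separated groups drive such an r, it is a description of these libraries with no test. The closest genes were NHSL3 (r = 0.99909), MAPK10, SLC39A1, BLTP2 and SH3PXD2B (r = 0.99792), with log2 fold changes of -0.85, -0.60, -1.34, -0.89 and -0.54. The most opposite were MGLL (r = -0.99752) and DMP1 (r = -0.99746), with 1.34 and 4.64. Within the repair genes r with UNG was 0.9928 for APEX1, 0.9368 for OGG1, 0.8663 for SMUG1 and -0.9649 for NEIL2, and it was 0.0877 for MUTYH and -0.2514 for TDG.

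One sequence word in 3′ untranslated regions had been noticed in earlier work on these data, the heptamer GCACCTC, and 2 of the 10 genes carry it there. Each window below has 11 bases on either side of the word, which is in capitals, and runs 5′ to 3′ in the transcript as GENCODE gives it. In UNG the word lies at bases 924 to 930 of a region of 1023 bases, and in NEIL1 at bases 221 to 227 of 2080.
UNG: ttattgggtctGCACCTCcatccttgatc
NEIL1: tgaacttcttgGCACCTCttggtctgaga

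Among tested genes with this word in the annotated region, 192 of 1041 (18.4%) were called lower and 66 (6.34%) higher, with a median log2 fold change of -0.19. Among the 11924 without it, 7.17% were lower and 8.27% higher, with a median of 0.03. UNG was the 7th lowest of the 1041, and NEIL1 had no call. The word was noticed in these same data and UNG was chosen by its low value. These shares and this rank are therefore descriptions with no test. The sources used here do not give the siRNA sequences, and whether the word has any part in the UNG value was not tested.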

How the data were processed

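RNA from 6 RMS13 libraries (3 siNT2, 3 siGLI1) was measured. The submitters' processing notes name, without roles or order, the build hg19 and the tools Bowtie2 2.3.3.1, Trim Galore 0.4.5, bcl2fastq, featureCounts (Subread 1.6.4) and DESeq2 2.11.40.6. The sources used here do not give the strand setting, the annotation or the handling of multiply mapped reads. The authors deposited signal values, which the table itself shows to be counts per gene divided by 1 factor per library and not by length. In every library 100.0% of values were whole multiples of 1 read (tolerance 0.01), so whole reads were recovered. A count of 0 allows up to 3 reads. This covers counting error only. Symbols matched 23696 of 25702 Entrez IDs (92.2%, RefSeq). Transcript lengths, GC content and untranslated regions came from GENCODE, with a GC value for 92.4% of tested genes, and start windows from RefSeq (GRCh38.p14), used for sequence only since the counts are on hg19.

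The test was limma 3.58.1 (lmFit, eBayes with trend, R 4.3.3) on log2(value + 1) for genes of mean 10 or more, Benjamini-Hochberg over all 15622, threshold 0.05. Fold changes understate those of low genes. The GC trend was removed by fitting each library's deviation from the mean of all 6 on transcript GC content with a spline, which also removes any GC-related difference between the groups and leaves genes without a GC value as they were. edgeR 4.0.16 (quasi-likelihood) and DESeq2 1.42.0 on recovered reads, other filters and pseudocounts, a block for replicate number, library weights and the omission of each library were alternatives. The limma test alone was tried on simulated counts, with the same dispersion for all genes and no GC trend. The alternatives were not tried in this way. Python 3.11.15 with numpy 2.4.6 and pandas 2.3.3 was used for the rest.

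The genes and lists were chosen with earlier results of these data known. Named were the 10 genes, GLI1, up to 5 called genes of each list by p (or the gene of highest mean where none was called), the nearest RefSeq neighbours, and the 5 most like and 2 most opposite to UNG in pattern. NEIL3, LIG3, XRCC1, POLB, DUT, DCTD, NUDT1, POLD4, STUB1, FAM72A, FAM72B, FAM72D, TET1, TET2 and TET3 are named beyond it. The labels do not say that replicates were separate cultures, so the p-values rest on the spread of these libraries alone, and that spread may be technical. No 2 libraries agreed within sampling noise.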

Additional observations from a re-analysis of the deposited data

How the results depend on the processing

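Over 17 alternatives and 50 fold changes, 735 of 847 comparisons kept direction and side of the threshold, 67 lost a call, 24 gained one and 21 turned sign, none of them a called value. Removing the GC trend raised the whole-table calls from 1127 higher and 1249 lower to 2294 and 2485, the lower calls among the 9 genes from 2 to 4, and the list calls from 4 and 10 to 8 and 21. Library weights gave 4059 and 4215, 2 higher (NEIL2 and TDG) and 4 lower among the 9, and 10 and 32 in the lists. Leaving out both GC-rich libraries, chosen after seeing the data, gave 2236 and 2356, 4 lower among the 9, and 21 lower in the lists. Leaving out 1 library gave 283 to 1562 higher and 358 to 1705 lower over the table, 0 to 1 and 1 to 3 among the 9, and 3 to 4 and 3 to 13 in the lists. The cause of these shifts was not tested.

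Same-numbered libraries share the start of a sample ID in the labels, which do not say what it marks. Their deviations correlated at 0.494, -0.109 and -0.614 for replicates 1, 2 and 3, so they went together for replicate 1 only. Across numbers, siNT2 replicate 2 was closest to siGLI1 replicate 3 (0.755). With a replicate block the calls were 462 higher and 508 lower, 0 and 1 among the 9 (APEX1, adjusted p = 0.0252, OGG1 0.0859, NEIL2 0.0646, limma), and 3 lower in the lists. With the block and the GC trend removed they were 1715 higher and 1873 lower, with 6 higher and 20 lower in the lists. In that fit 1 of the 9 was higher (NEIL2, limma adjusted p = 0.00653) and 3 were lower (APEX1 0.0037, OGG1 0.0224 and SMUG1 0.0337).

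Signs turned with the GC trend removed, with or without the block, for TDG (-0.0325), MUTYH (0.113), MPG (0.0581), OSGEP (0.0609) and BRPF1 (0.0556). Library weights turned MUTYH (0.0827), OSGEP (0.115) and HPDL (0.127), DESeq2 turned OSGEP (0.0002), and so did leaving out both GC-rich libraries (0.007). Leaving out 1 library gave -0.0133 to 0.296 for TDG, -0.317 to 0.211 for MUTYH and -0.0668 to 0.0791 for OSGEP and -0.633 to 0.008 for MIR631 (without siNT2 replicate 3 and replicate 2). The lowest count of the 10 genes was 157 reads, far above the floor of 3, but called genes named beside them went lower, to 7 reads for DMP1, 20 for APOBEC3C and 27 for GADD45B.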
